A study of Mus musculus with 6 samples.

Results

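The 6 Ly6 genes described here, Ly6a, Ly6c1, Ly6c2, Ly6e, Ly6g and Ly6i, were taken by name from the 36137 genes measured in bone marrow-derived macrophages (BMDMs), and their read counts were summed over the transcripts of each gene. They were selected on results of the same comparison, Drp1 KO against WT, so their differences between the genotypes are given as a description and carry no test. Drp1 (gene symbol Dnm1l) encodes the GTPase that divides mitochondria, and the study compared BMDMs with and without it under hypoxia with serum starvation (HSS), its culture model of ischemia. The Drp1 KO cells came from LysM-Cre+/- mice with floxed Drp1 alleles and the WT cells from LysM-Cre+/- Drp1+/+ mice, so both genotypes carried the Cre transgene, which acts in cells of the myeloid lineage. The mice were 8 to 12 weeks old and of both sexes, and the marrow of 2 mice per genotype was pooled for culture. BMDMs were grown for 7 days in medium with L929 supernatant, then held for 8 hours without serum at 2.1% oxygen according to the labels, and 3 libraries per genotype were sequenced. The labels call the libraries biological replicates, but no source says whether each came from its own pool of marrow, so the spread between them may be partly technical.

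Ly6 proteins are small, cysteine-rich surface proteins that share a fold of looped fingers with the urokinase receptor and are held in the outer leaflet of the membrane by a glycosylphosphatidylinositol (GPI) anchor. Immunologists use several of them as labels of blood cell types. Ly6C, the product of Ly6c1 and Ly6c2, separates classical from nonclassical monocytes, Ly6G marks neutrophils, and LY6A, better known as Sca-1, marks haematopoietic stem and progenitor cells and rises on many cells given interferon. Ly6e is likewise a known interferon-inducible gene and is expressed far more broadly than the others.

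The members sit in 1 cluster. In the GENCODE annotation of GRCm39 they lie within 204.12 kb of chromosome 15, in the order Ly6e (chr15:74826860-74847454, plus strand), Ly6i (chr15:74851383-74855279, minus strand), Ly6a (chr15:74863840-74869880, minus strand), Ly6c1 (chr15:74915847-74920686, minus strand), Ly6c2 (chr15:74980003-74988467, minus strand) and Ly6g (chr15:75027089-75030982, plus strand). Their coding sequences are short, 393 to 405 bases for 130 to 134 residues. The first 60 coding bases (GENCODE transcripts) of 4 members are shown to make visible how alike the genes are. Capitals mark the bases of Ly6i (6 of 60) and Ly6g (7 of 60) that differ from Ly6a at the same position, and Ly6e is left in lower case because it was not lined up with the others.
Ly6a: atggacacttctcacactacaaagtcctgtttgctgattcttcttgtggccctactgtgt
Ly6i: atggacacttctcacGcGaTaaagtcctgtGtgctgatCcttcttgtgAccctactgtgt
Ly6g: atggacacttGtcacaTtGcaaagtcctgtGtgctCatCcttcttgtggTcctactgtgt
Ly6e: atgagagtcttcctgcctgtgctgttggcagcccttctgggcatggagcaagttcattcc
Over whole coding sequences, Ly6a and Ly6i were identical at 86.42% of aligned positions and Ly6c1 and Ly6c2 at 97.73%, with 9 differing positions. Ly6e stood apart, with 48.85% to 50.7% identity to the other 5.

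The Ly6c1 and Ly6c2 pair matters for reading the counts, because kallisto assigns a read by the 31-base stretches it shares with each transcript (31 bases is its default). The first 300 coding bases of both genes follow, with the 7 differing bases in capitals. The longest run without a difference is 188 bases.
Ly6c1: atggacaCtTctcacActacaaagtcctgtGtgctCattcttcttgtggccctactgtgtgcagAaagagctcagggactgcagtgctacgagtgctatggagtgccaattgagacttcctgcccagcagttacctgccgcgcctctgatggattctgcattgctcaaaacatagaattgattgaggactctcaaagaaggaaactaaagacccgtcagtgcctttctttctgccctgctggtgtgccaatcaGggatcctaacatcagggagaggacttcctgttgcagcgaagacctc
Ly6c2: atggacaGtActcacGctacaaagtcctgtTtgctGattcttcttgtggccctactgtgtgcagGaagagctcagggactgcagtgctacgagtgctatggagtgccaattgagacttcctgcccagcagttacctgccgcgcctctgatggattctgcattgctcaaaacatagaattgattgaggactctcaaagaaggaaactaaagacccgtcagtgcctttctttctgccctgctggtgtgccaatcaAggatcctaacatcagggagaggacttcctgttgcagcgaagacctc
Of the 31-base stretches in the coding sequence, 63.66% for Ly6c1 and 65.57% for Ly6c2 also occur in another gene, mostly in each other. The share was 32% for Ly6a, 27.47% for Ly6i, 17.6% for Ly6g and 4.13% for Ly6e, whose shared stretches all lie in the pseudogene Ly6e-ps1. How the authors' counting split reads between Ly6c1 and Ly6c2 is therefore uncertain, whereas Ly6e shares almost no sequence with the rest. The shares were computed on GENCODE transcript models, several of which are longer than those the authors counted on (3706 against 819 bases for Ly6a-201). They are therefore approximate for the authors' sequences.

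CPM (counts brought to a common library size with the TMM factors of edgeR) is used where 1 gene is compared between libraries, and TPM (which also accounts for transcript length) where genes are compared with each other. SE stands for the standard error of a log2 fold change. Totals per library were 23389488 to 32231206 estimated counts, and 3 counts, taken as the floor of detection, correspond to 0.0917 to 0.136 CPM. Dnm1l itself was only slightly lower in the Drp1 KO libraries, at 58.7, 60.7 and 66.3 CPM against 72.7, 69.9 and 75.1 CPM in WT. The genotypes did not overlap, but the log2 fold change of -0.23 (SE 0.0921) did not pass the test (adjusted p = 0.248, edgeR), and these whole-gene counts do not resolve which exons were deleted. The study reports by immunoblot that DRP1 protein was deleted in BMDMs and in peritoneal macrophages of these mice, which RNA counts do not measure. The defining markers of macrophages were abundant, with Adgre1, which encodes F4/80, at 1341 ± 213 and 1386 ± 73.6 CPM (WT and Drp1 KO, SD, n = 3) and Cd68 at 903 ± 114 and 889 ± 203 CPM. Libraries 1 of both genotypes stood apart from libraries 2 and 3: deviations from the group means correlated at 0.515 between both libraries 1 and were negatively related to those of every library of the other genotype with another number.

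Ly6e was by far the most abundant member. WT libraries 1 to 3 held 142, 57.3 and 59.97 CPM, and Drp1 KO libraries 1 to 3 held 542, 389 and 290.3 CPM. Every Drp1 KO library exceeded every WT library, and within each genotype library 1 was the highest. The means were 86.5 ± 48.3 and 407 ± 127 CPM (SD, n = 3), a log2 fold change of 2.24 (SE 0.346). Taken by library number, the ratio of Drp1 KO to WT was 3.81, 6.78 and 4.84. With WT library 2 left out, the log2 fold change was 1.99.

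Ly6a was close to the floor in WT cells and readily detected in Drp1 KO cells. WT libraries held 5, 2 and 8 counts (0.216, 0.0750 and 0.273 CPM) and Drp1 KO libraries 106, 215 and 191 counts (4.81, 6.57 and 5.86 CPM). The groups were widely separated, and WT library 2 was under the floor. The means were 0.188 ± 0.102 and 5.75 ± 0.884 CPM (SD, n = 3), and the log2 fold change was 4.90 (SE 0.347). The WT mean rests on 15 counts in all. The ratio of summed counts at matched depth was 30.95, with an exact 95% interval of 18.6 to 55.7 that covers counting error only. In Drp1 KO libraries, 85.704% to 95.878% of the Ly6a TPM lay on transcript Ly6a-201.

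Ly6c2, which encodes a Ly6C antigen, was low in both genotypes. WT libraries held 0, 7 and 9 counts and Drp1 KO libraries 8, 30 and 32, or 0, 0.262 and 0.307 CPM against 0.363, 0.917 and 0.981 CPM. The genotypes did not overlap, but Drp1 KO library 1 lay only just above WT library 3. The log2 fold change was 1.94 (SE 0.722), or 2.02 with the replicate number as a block and 1.72 with both libraries 1 left out. A retained-intron transcript of 2680 bases, Ly6c2-202, took 10.2 of the WT counts and 23.4 of the Drp1 KO counts, and part of its sequence also occurs in unrelated genes. Without it the summed counts were 6 and 47, a depth-matched ratio of 7.10 (exact 95% interval 3.03 to 20.3, counting error only) in place of 3.97 (2.28 to 7.32).

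Ly6c1, the near-identical partner, was at or under the floor in every library, with 0, 0 and 2 counts in WT and 0, 1 and 1 in Drp1 KO libraries, and no fold is given. Adding both genes, so that it does not matter how reads were divided between them, gave 0, 7 and 11 counts in WT and 8, 31 and 33 in Drp1 KO libraries. On the CPM scale the sum was 0.212 ± 0.192 in WT and 0.774 ± 0.357 in Drp1 KO (SD, n = 3). The groups overlapped for this sum, since WT library 3 (0.375 CPM) exceeded Drp1 KO library 1 (0.363 CPM).

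Ly6i, the gene next to Ly6e, had 1 count in each WT library and 4, 6 and 9 counts in the Drp1 KO libraries. It passed the filter of 10 counts only through the Drp1 KO group. The depth-matched ratio of the summed counts, 19 against 3, was 5.74 with an exact 95% interval of 1.69 to 30.3, which covers counting error only and describes a gene that the filter kept for its Drp1 KO counts. Ly6g, the neutrophil gene, had 0 counts in all 6 libraries, which allows up to 3 counts, or 0.136 CPM in the shallowest library.

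**Figure D1:**
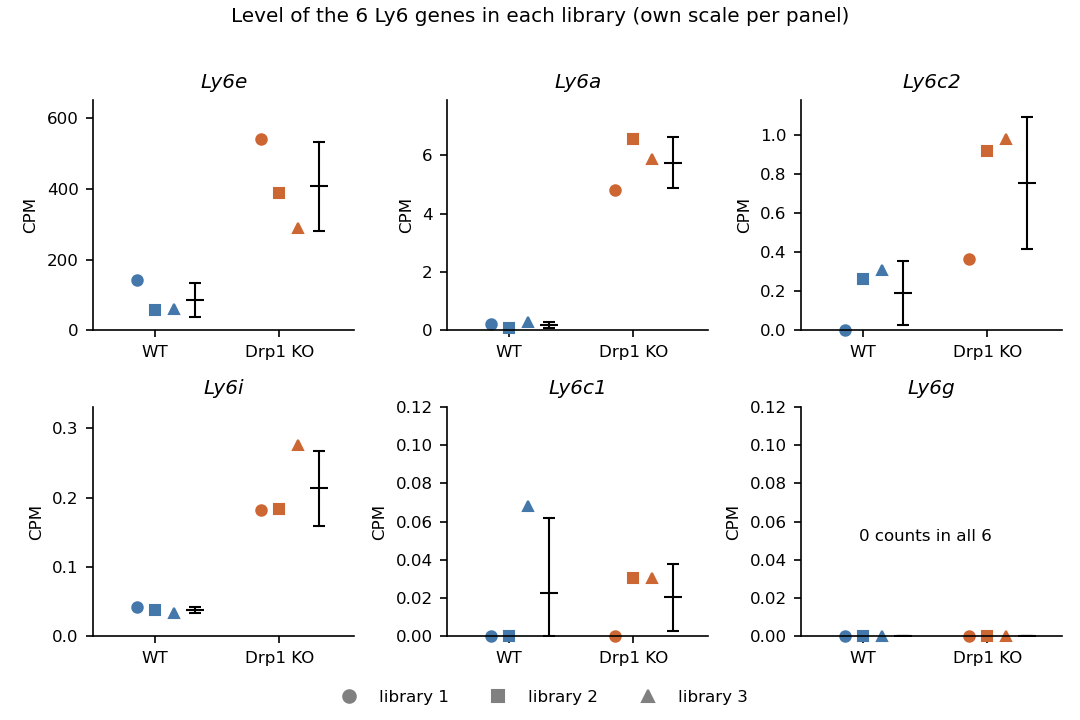
Level of each Ly6 gene in CPM (vertical axes start at 0 and differ between panels) in the 3 WT and 3 Drp1 KO libraries, with the library number as the symbol and the mean ± SD beside the points (cut at 0). Ly6e runs from 57.3 to 142 CPM (WT) and from 290.3 to 542 CPM (Drp1 KO), Ly6a is at 0.0750 to 0.273 CPM (WT) and 4.81 to 6.57 CPM (Drp1 KO), and Ly6g is at 0 throughout.

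Of the 6 members, 4 reached 10 counts over the 6 libraries (Ly6e, Ly6a, Ly6c2 and Ly6i) and 2 of these, Ly6e and Ly6a, were called at an adjusted p under 0.05, both higher in Drp1 KO cells. Over all 18506 genes tested, 3.36% were called (621), 2.29% higher (424) and 1.06% lower (197) in Drp1 KO cells. All 4 members had every Drp1 KO library above every WT library, which held for 11.7% of all genes tested. With WT library 2 left out, 1 member, Ly6a, was called. With the replicate number as a block 3 members were called, Ly6c2 being added, where 12% of all genes were called (2212). Because the members were selected on this contrast, nothing is read from these calls and shares.

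Per length, the mean levels fell in the same order in both genotypes, but few steps of that order held beyond the spread in WT cells. In WT the TPM was 91.8 ± 48.4 for Ly6e, 0.439 ± 0.267 for Ly6a, 0.335 ± 0.295 for Ly6c2, 0.0853 ± 0.0568 for Ly6i, 0.0592 ± 0.103 for Ly6c1 and 0 for Ly6g (SD, n = 3). Of the neighbours in this order, only Ly6e and Ly6a differed beyond their spread. In Drp1 KO it was 396 ± 121 for Ly6e, 12.8 ± 2.34 for Ly6a, 1.34 ± 0.266 for Ly6c2, 0.421 ± 0.166 for Ly6i and 0.0546 ± 0.0474 for Ly6c1, and no library of one gene overlapped the next except between Ly6c1 and Ly6g. The mean TPM of Ly6e was 209 times that of Ly6a in WT and 30.8 times in Drp1 KO cells.

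The transcripts of Ly6e were examined because the choice of transcript was not used to select the gene. Most of its TPM was assigned to Ly6e-207, annotated as a retained intron, which took 76.3%, 76.5% and 78.2% in WT libraries and 77.1%, 69.9% and 67.3% in Drp1 KO libraries. The coding transcript Ly6e-211 followed, with 19.2%, 16.4% and 16.8% in WT and 17.4%, 21.7% and 24.8% in Drp1 KO libraries. The groups overlapped for both transcripts. The mean share of Ly6e-207 was 5.50 points lower in Drp1 KO cells (two-sided exact permutation p = 0.3, n = 3 each), and that of Ly6e-211 was 3.84 points higher (exact permutation p = 0.2), where the smallest p that 3 against 3 libraries allows is 0.1. Ly6e-207 holds 92.29% of the 31-base stretches of the Ly6e coding sequence, so most coding reads can match it as well as the coding transcripts, and its share is not a measure of unspliced RNA.

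**Figure D2:**
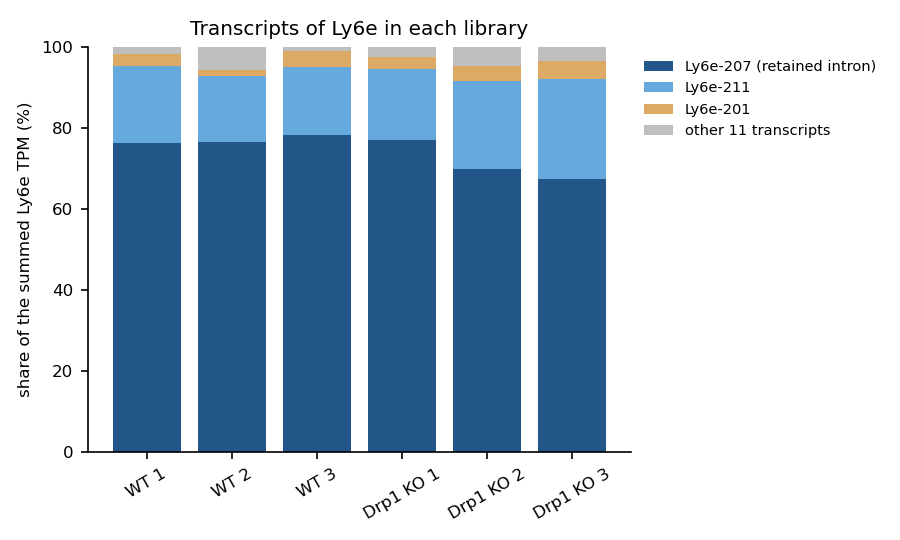
Share of the summed Ly6e TPM (%) assigned to Ly6e-207, Ly6e-211, Ly6e-201 and the other 11 transcripts in each of the 6 libraries. Ly6e-207 takes 76.3% to 78.2% (WT) and 67.3% to 77.1% (Drp1 KO).

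No other gene of the Ly6/uPAR family passed the test. Of 40 family genes outside the 6, 19 had no count, 9 had 1 to 9 counts and 12 were tested. None of the 12 was called by edgeR or by DESeq2, and 1 had an unadjusted p under 0.05 (edgeR): Ly6g6e, with 1 count in WT and 9 in Drp1 KO libraries, named here after its values were seen. Over all genes tested, 16.4% had an unadjusted p under 0.05 (3038), and DESeq2 called 8.8% of the genes to which it gave an adjusted p (1155 of 13119). The median log2 fold change of the 12 was 0.08 (0.01 with the gene at the floor set to its bound) against 0.00 for all genes. Plaur, the urokinase receptor, was the most abundant, with 128 ± 26.1 and 129.7 ± 48.6 CPM (WT and Drp1 KO, SD, n = 3) and a log2 fold change of 0.02 (SE 0.231, adjusted p = 0.989). In the same order, Cd59a, an inhibitor of the complement attack complex, stood at 13.8 ± 1.81 and 13.3 ± 1.5 CPM (log2 fold change -0.05, SE 0.144, adjusted p = 0.927). Lynx1, a modulator of nicotinic receptors, stood at 0.902 ± 0.315 and 1.57 ± 0.543 CPM (log2 fold change 0.81, SE 0.373, adjusted p = 0.317).

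Genes near the cluster were also low. Of 84 annotated genes that start within 500 kb of a member, 45 are in the files and 8 were tested, among them the family genes Lynx1 and Ly6m. None was called by edgeR or DESeq2, 2 had an unadjusted p under 0.05, and the median log2 fold change was 0.23. Those 2 genes, named after their values were seen, were Them6 and Gm6610. Them6 stood at 0.384 ± 0.143 and 1.06 ± 0.474 CPM (WT and Drp1 KO, log2 fold change 1.44, SE 0.466, adjusted p = 0.142), and it was called with the replicate block (adjusted p = 0.0369). Gm6610, an unnamed gene model close to Ly6e, had 0 counts in WT and 16 in Drp1 KO libraries. It passed the count filter only through the Drp1 KO group. Gm6610 was called with both libraries 1 left out (adjusted p = 0.0493, edgeR). That setting was chosen after seeing the data, and it drops the Drp1 KO library in which Gm6610 was at 0 CPM. Nothing is therefore read from the p-values of Gm6610.

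**Figure D3:**
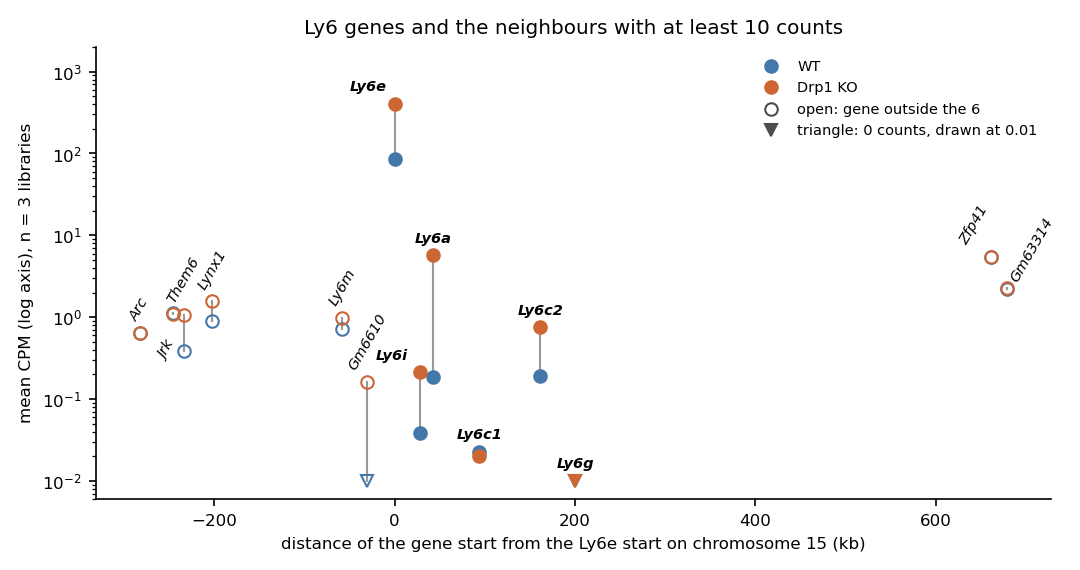
Mean CPM (log axis, n = 3 libraries per genotype) of the 6 Ly6 genes (filled) and the 8 tested neighbours (open), against the distance of each gene start from the start of Ly6e in kb. Ly6e, Ly6a, Ly6c2 and Ly6i are higher in Drp1 KO than in WT, and none of the 8 neighbours was called in the fit over all 6 libraries.

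Genes known to be induced by interferon were compared with the members, with Ly6 genes kept out of the list. Of 39 such genes tested, 36 were called, all higher in Drp1 KO cells, where 2.29% of all genes were called higher. The 3 not called were Ifi35, Bst2 and Gbp3, named after their values were seen (adjusted p = 0.0775, 0.144 and 0.0758). With the replicate block all 39 were called, against 12% of all genes, with these 3 at adjusted p = 0.0123, 0.00417 and 0.00674. The list was drawn up with results of these data known, so its direction is not independent evidence. Its median log2 fold change was 1.91. Usp18, which shuts off interferon receptor signalling, rose by 3.16 on the log2 scale (SE 0.207, adjusted p = 0.000198) and Rtp4, an interferon-induced antiviral gene, by 2.39 (SE 0.165, adjusted p = 0.000198). Ifi213, a PYHIN family gene, rose by 3.10 (SE 0.210, adjusted p = 0.000198), and Igtp, an interferon-inducible GTPase, by 1.87 (SE 0.149, adjusted p = 0.00031). The list ran from 0.57 to 3.57, so that Ly6e (2.24) lay above its median and Ly6a (4.90) above its highest value. Bst2 is itself GPI-anchored and is also counted in the list of such proteins.

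The level of Ly6e was set beside the summed level of the interferon-stimulated genes in each library. That sum was 2371, 2235 and 1755 CPM in WT libraries 1 to 3 and 5229, 7266 and 7550 CPM in Drp1 KO libraries 1 to 3. Among WT libraries both were highest in library 1. Among Drp1 KO libraries Ly6e was highest, at 542 CPM, where the sum was lowest, and lowest, at 290.3 CPM, where the sum was highest. Relative to the sum, Ly6e was 6.0%, 2.57% and 3.42% in WT and 10.4%, 5.35% and 3.85% in Drp1 KO libraries, so that the groups overlapped on this measure. Over the 6 libraries and among 12247 other genes averaging 1 CPM or more, the genes whose log2 CPM ran most like Ly6e were Wars1, Ifitm3 and Isg20, with Pearson correlations of 0.999, 0.998 and 0.998. For Ly6a they were Psma1, Lclat1 and Fndc3a, with 0.9998, 0.997 and 0.996. The 6 libraries fall into 2 groups, and 264 of the 12247 genes exceeded 0.95 for Ly6e and 261 for Ly6a. The Ly6a matches differed little between the genotypes, with Psma1, a proteasome subunit, at 63.4 to 67.8 CPM (WT) and 83.2 to 85.8 CPM (Drp1 KO).

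Genes of interferon signalling itself gave few calls. Of 21 genes for interferons, their receptors, kinases and SOCS feedback inhibitors, 12 were tested and none was called by edgeR, 3 had an unadjusted p under 0.05, and DESeq2 called 1. The median log2 fold change was -0.01. With the replicate block 2 were called, both higher in Drp1 KO cells, and with both libraries 1 left out 3 were called, 1 higher and 2 lower. The shares over all genes were 16.4% for the unadjusted p, 8.8% for DESeq2 and 12% for the block.

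**Figure D4:**
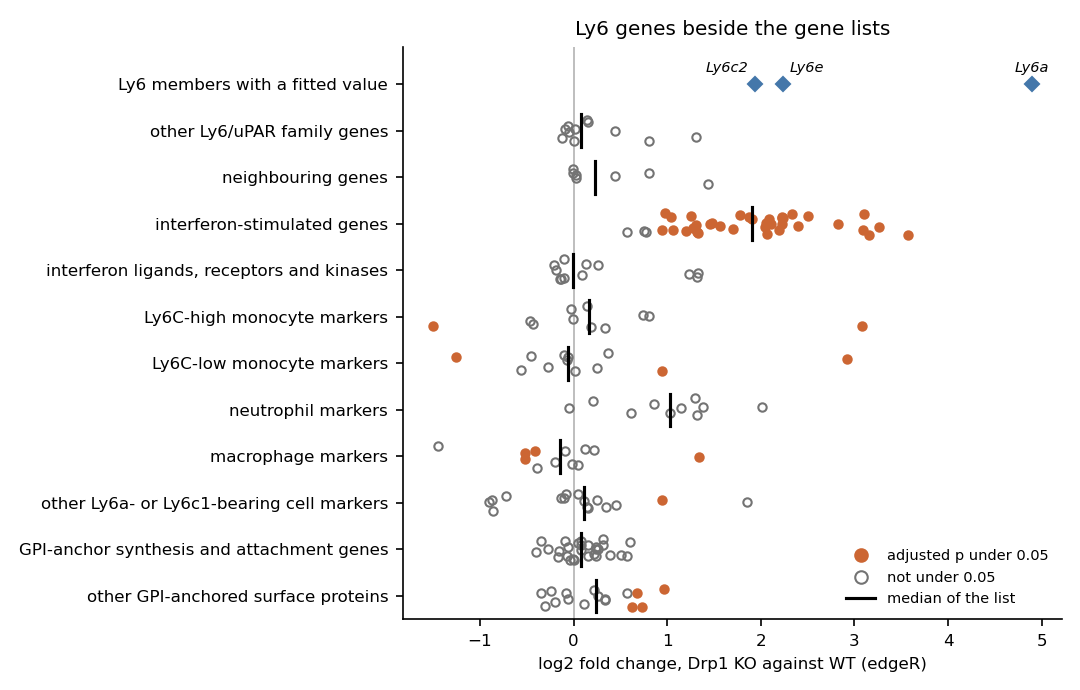
Log2 fold change of Drp1 KO against WT (edgeR) for Ly6e, Ly6a and Ly6c2 (diamonds, no test) and for each tested gene of the 11 comparison groups (filled where the adjusted p was under 0.05), with the median of each group as a bar. The 5 values of genes at or under the floor in 1 genotype are not drawn, and the interferon-stimulated genes lie to the right of 0 with a median of 1.91 while the other Ly6/uPAR genes centre at 0.08.

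Cell type markers were counted because several Ly6 proteins mark cell types, and in bulk RNA fewer cells of a type and less RNA per cell cannot be told apart. Of 12 Ly6C-high monocyte markers tested, 7 had a fold change above 0 and 5 below, with a median log2 fold change of 0.16, and 6 had an unadjusted p under 0.05 (16.4% of all genes). Of the 12, 1 was called higher, Ms4a4c (log2 fold change 3.08, SE 0.275, adjusted p = 0.000389), and 1 lower, F13a1, the coagulation factor XIII subunit (-1.51, SE 0.116, adjusted p = 0.000276). Over all genes, 2.29% were called higher and 1.06% lower. Ccr2, the chemokine receptor of classical monocytes, stood at 2.61 ± 0.509 and 3.29 ± 0.958 CPM (WT and Drp1 KO, adjusted p = 0.614). Summed over the list the level was 467 to 493 CPM (WT) and 367 to 482 CPM (Drp1 KO), most of it from Gsr, Mgst1 and F13a1, picked out after their values were seen. The rest of the list summed to 32.9 to 47.8 CPM (WT) and 59.97 to 90.3 CPM (Drp1 KO), and without Ms4a4c to 28.6 to 45.2 and 32.4 to 60.5 CPM, where the groups overlapped. With the replicate block 4 of the 12 were called (12% of all genes), 2 higher and 2 lower, among them Gsr (log2 fold change -0.48, adjusted p = 0.0207). Of 12 Ly6C-low monocyte markers, 3 were called, where 3.36% of all genes were. Cd300e (log2 fold change 2.92, adjusted p = 0.00178) and Spn (0.95, adjusted p = 0.0229) were higher and Treml4 (-1.25, adjusted p = 0.0315) was lower. The sums were 2265 to 2288 CPM (WT) and 1895 to 2511 CPM (Drp1 KO), or 361 to 556 and 386 to 544 CPM without Cd36. Cd36 made up most of them and was picked out after its values were seen. The call of Spn was lost on leaving out the second or the third WT library or the third Drp1 KO library (adjusted p = 0.0717 to 0.144), and that of Treml4 without any 1 library other than Drp1 KO library 1 (0.0584 to 0.145) and with counts scaled from TPM (0.0708).

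Most neutrophil markers had a higher mean in Drp1 KO libraries, but none was called by the edgeR fit without a block. Of 11 tested, 10 had a fold change above 0 and none was called by edgeR, 6 had an unadjusted p under 0.05, DESeq2 called 3, and the replicate block called 6, where the shares over all genes were 16.4%, 8.8% and 12%. Their summed level was 139 to 144 CPM (WT) and 168 to 267 CPM (Drp1 KO), and the median log2 fold change was 1.03. Most of that sum was Mmp8 and Csf3r, picked out after their values were seen, and the rest of the list summed to 8.71 to 23.9 CPM (WT) and 23.5 to 53.5 CPM (Drp1 KO), so that the groups overlapped. In that rest every Drp1 KO library exceeded every WT library for Ngp, Ltf and Lcn2, named after their values were seen. That held for 11.7% of all genes tested. For S100a8, S100a9, Cxcr2, Mpo, Prtn3, Camp and Elane, named likewise, the groups overlapped. Mmp8, a collagenase, was at 89.0, 70.4 and 76.3 CPM in WT libraries and 186, 69.3 and 174 CPM in Drp1 KO libraries, with the second Drp1 KO library below every WT library (adjusted p = 0.161, and 0.0232 with the replicate block). S100a8, a defining gene, stood at 2.99 ± 0.997 and 7.78 ± 4.25 CPM (adjusted p = 0.122; 0.0109 with DESeq2 and 0.00146 with the replicate block), and Elane, which marks early precursors, had 3 counts in WT and 5 in Drp1 KO libraries. Ly6g, the most specific of these genes, was at 0 in all 6 libraries. The part of other cells in the Ly6a and Ly6c2 differences was not tested.

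Markers of the other cells that carry Ly6a or Ly6c1 were mostly low, apart from Cd4. Of 20 genes of progenitors, lymphocytes, endothelial cells and fibroblasts, 17 were tested, 10 with a fold change above 0 and 7 below. Of the 17, 1 was called, where 3.36% of all genes were. It was Kdr, a VEGF receptor (10.1 ± 1.82 against 19.4 ± 3.20 CPM, log2 fold change 0.94, SE 0.167, adjusted p = 0.0144). That call was lost without WT library 2 (adjusted p = 0.106) or WT library 3 (0.0892). The endothelial gene Cdh5 had 9 counts in WT and 36 in Drp1 KO libraries (adjusted p = 0.222), and the T cell gene Cd3e had 14 and 18. The progenitor gene Kit stood at 2.82 ± 1.26 and 3.59 ± 0.325 CPM (adjusted p = 0.637), and the fibroblast gene Col1a1 at 0.822 ± 0.281 and 0.777 ± 0.0968 CPM (adjusted p = 0.964). The summed level was 339 to 354 CPM (WT) and 170.5 to 293 CPM (Drp1 KO). Most of that sum was Cd4, singled out after its values were seen, at 312 ± 7.73 and 167 ± 67.8 CPM (log2 fold change -0.90, SE 0.222, adjusted p = 0.0595 with edgeR). It was called lower with DESeq2 (adjusted p = 0.000933), with the replicate block (0.00228), with no filter beyond 1 count (0.000834) and without Drp1 KO library 2 (0.0028). The rest of the list summed to 35.7 to 39.5 CPM (WT) and 48.1 to 52.0 CPM (Drp1 KO), and without Kdr to 26.7 to 27.3 and 29.0 to 33.5 CPM. For both sums every Drp1 KO library lay above every WT library.

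Among 12 macrophage markers, 1 was called higher and 3 lower, and with the replicate block 1 higher and 5 lower. Over all genes, 3.36% were called without the block and 12% with it. Fcgr1, the high-affinity IgG receptor, was called higher (log2 fold change 1.34, SE 0.111, adjusted p = 0.000322). Mertk, a receptor for dying cells, fell by 0.52 on the log2 scale (adjusted p = 0.0236), Csf1r, the growth factor receptor of macrophages, fell by 0.52 (adjusted p = 0.034) and Mrc1, the mannose receptor, fell by 0.42 (adjusted p = 0.0408). These 3 calls were each lost on leaving out the second or the third library of either genotype (adjusted p = 0.0621 to 0.163), and those of Csf1r and Mrc1 also on leaving out WT library 1 (0.0635 and 0.0724) and with counts scaled from TPM (0.21 and 0.0627). Itgam, which encodes CD11b, stood at 909 ± 34.5 and 988 ± 224 CPM (adjusted p = 0.793), and the summed level was 15120 to 16650 CPM (WT) and 13320 to 15680 CPM (Drp1 KO), or 5880 to 6768 and 5146 to 6155 CPM without Lyz2, which made up most of it and was likewise picked out afterwards.

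Because Ly6 proteins need a GPI anchor to stay on the surface, the genes that build and attach the anchor were counted as well. Of 30, 28 were tested and none was called by edgeR, 7 had an unadjusted p under 0.05, DESeq2 called 3 (1 higher, 2 lower), and the replicate block called 4, against 16.4%, 8.8% and 12% of all genes. Their median log2 fold change was 0.08, and their summed level was 786 to 829.5 CPM (WT) and 728 to 779 CPM (Drp1 KO). Of 16 tested genes for GPI-anchored proteins outside the Ly6 fold, 4 were called, all higher in Drp1 KO cells, and 6 with the replicate block, where 2.29% of all genes were called higher without the block and 12% were called in either direction with it. The median log2 fold change of the list was 0.24. Cd55, which protects cells from complement, rose by 0.68 on the log2 scale (adjusted p = 0.00717) and Cd109, a co-receptor in TGF-beta signalling, by 0.96 (adjusted p = 0.00719). Bst1, an ADP-ribosyl cyclase, rose by 0.73 (adjusted p = 0.00795) and Cd52, a small leukocyte glycoprotein, by 0.62 (adjusted p = 0.0197). Without WT library 2 only 1 of the 16 was called, and without WT library 3 only 2. The 4 called values are smaller than those of Ly6e and Ly6a, and that difference was not tested.

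Promoter sequence was available for the Ly6c pair and for Ly6g. The windows span 250 bases before to 50 bases after a start site (RefSeq, GRCm38.p6) and are shown for Ly6c1 and Ly6c2, whose coding sequences nearly match and whose counts cannot be divided with certainty. By exact match they lie in GRCm39 at chr15:74920637-74920936 (minus strand), over the annotated start of the Ly6c1 transcripts, and at chr15:74983771-74984070 (minus strand), with the start 7 bases from that of transcript Ly6c2-201.
Ly6c1 promoter: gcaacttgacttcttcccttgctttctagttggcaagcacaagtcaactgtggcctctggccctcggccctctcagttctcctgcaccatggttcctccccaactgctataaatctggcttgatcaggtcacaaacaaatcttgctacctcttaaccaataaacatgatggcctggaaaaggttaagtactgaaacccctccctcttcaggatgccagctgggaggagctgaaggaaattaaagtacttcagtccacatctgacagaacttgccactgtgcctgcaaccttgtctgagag
Ly6c2 promoter: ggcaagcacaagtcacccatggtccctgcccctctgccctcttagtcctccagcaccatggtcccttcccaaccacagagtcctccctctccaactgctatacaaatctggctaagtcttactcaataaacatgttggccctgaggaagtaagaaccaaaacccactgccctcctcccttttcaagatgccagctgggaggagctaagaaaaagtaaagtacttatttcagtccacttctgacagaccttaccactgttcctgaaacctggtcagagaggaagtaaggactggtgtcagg
Aligned with free ends, 78.2% of 266 aligned bases were identical, which is less than the 97.73% of the coding sequences. The core of the interferon-stimulated response element, GAAANNGAA (TTCNNTTTC on the other strand), and the gamma-activated site, TTCNNNGAA (the same on both strands), were searched. Neither was found in any of the 6 windows of Ly6c1, Ly6c2 and Ly6g, where 8.56% and 8.30% of all 32851 promoter windows of this length hold one. The windows of the same gene overlap and are not separate looks. Most promoter windows hold neither, so little can be read from the absence. No window was available for Ly6a, Ly6e and Ly6i.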

How the data were processed

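Poly(A) RNA of 3 WT and 3 Drp1 KO BMDM libraries was sequenced with paired-end reads. The authors quantified the reads with kallisto 0.46.1 on cDNA sequences of GRCm39 and deposited, per transcript, estimated counts (not scaled between libraries) and TPM. The submitters' processing notes also name DESeq2 1.44.0. Transcript identifiers were looked up in GENCODE for GRCm39 (116159 of 116873 found, 99.4%), and estimated counts were summed per gene and rounded. Genes with at least 10 counts were fitted with edgeR 4.0.16 (TMM, quasi-likelihood test, no covariate, R 4.3.3), and Benjamini-Hochberg adjustment ran over all 18506 genes tested. Adjusted p-values in the text come from this fit unless another is named. The standard error is the fold change divided by the root of the F statistic. The fit was tested on simulated data. Levels between genes use the deposited TPM. Exact intervals are Clopper-Pearson. Kallisto divides a read among the transcripts it matches, which leaves the split between near-identical genes uncertain.

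Libraries with the same number deviated together from their group means, with correlations of 0.515, 0.206 and 0.307 for libraries 1 to 3 over 12248 genes averaging 1 CPM or more. Among libraries of different number the correlations ran from -0.45 to 0.328, and 2 were above 0: WT library 2 with Drp1 KO library 3 (0.328, above the value for its own number) and WT library 3 with Drp1 KO library 2 (0.0822). All 3 same-number values exceed 0.1, the limit set for pairs, and the methods are silent on pairing. The fit kept no block, so its calls take no account of any pairing. With the block, the genes called rose from 621 to 2212. The blocked value or count is given where it changes the call of a named gene or a list's count of calls. The likeness of genes used log2(CPM + 0.1).

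The 6 members, the 10 gene lists and the tests were chosen with earlier results of these data known. Named genes are the members, Dnm1l, family genes averaging 1 CPM or more, up to 4 called genes with the smallest p per list and direction, called neighbours, defining cell type markers (1 of them is not reported here), and the 3 genes most like each member at that level. Genes outside this rule are said to be named after their values were seen. Alternatives were DESeq2 1.42.0, other size factors, other filters, counts scaled from TPM, a block on the replicate number and leaving out each library.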

Additional observations from a re-analysis of the deposited data

How the results depend on the processing

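Direction held for Ly6e (log2 fold change 1.96 to 2.79), Ly6a (4.50 to 5.29) and Ly6c2 (1.42 to 2.44) under every alternative in which they were fitted, and filterByExpr did not keep Ly6c2. The added alternatives, which leave out both libraries 1 or the retained-intron transcript of Ly6c2, were chosen after seeing the data. Counts of 3 or fewer limit Ly6c1, Ly6g and the WT level of Ly6i. Members called were 2 except 3 with the replicate block and with both libraries 1 left out, and 1 to 2 with 1 library left out. The interferon-stimulated genes called stayed at 33 to 39 of 39, and no other family gene was called, under any alternative.

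Genes called in all were 621, against 1155 with DESeq2, 1065 with no filter beyond 1 count, 2212 with the replicate block, 1880 with both libraries 1 left out and 181 to 904 with 1 library left out, namely 744, 181 and 217 without WT libraries 1 to 3 in turn and 904, 268 and 348 without Drp1 KO libraries 1 to 3. The cause was not tested.

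With DESeq2, calls numbered 1 among interferon ligands, receptors and kinases (0 in edgeR), 3 among neutrophil markers (0), 2 among markers of other Ly6a- or Ly6c1-bearing cells (1) and 3 among GPI-anchor genes (0). With no filter beyond 1 count they numbered 1, 5, 2 and 2 for these lists. With the replicate block they numbered 2, 6, 2 and 4, with 4 among Ly6C-high monocyte markers (2 without the block) and 1 among neighbouring genes (0). With both libraries 1 left out they numbered 3 for interferon ligands, receptors and kinases, 5 for Ly6C-high monocyte markers, 5 for neutrophil markers, 4 for GPI-anchor genes and 1 for neighbouring genes. Library size alone gave 2 for GPI-anchor genes, and counts scaled from TPM gave 2 for macrophage markers (4). With 1 library left out, the calls ran from 0 to 1 for interferon ligands, receptors and kinases, 2 to 4 for Ly6C-high monocyte markers, 1 to 3 for Ly6C-low monocyte markers, 0 to 3 for neutrophil markers, 1 to 5 for macrophage markers, 0 to 2 for markers of other Ly6a- or Ly6c1-bearing cells, 0 to 1 for GPI-anchor genes and 1 to 6 for other GPI-anchored proteins. The replicate block changed no other call counts by over 1.5 times.

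Some uncalled values near 0 changed sign and stayed uncalled. Plaur was at -0.003 with library size alone, -0.217 with counts scaled from TPM, -0.025 with the replicate block, -0.15 with both libraries 1 left out, and -0.339 to 0.206 with 1 library left out. Cd59a was at 0.2 with counts scaled from TPM and 0.044 with both libraries 1 left out, and Col1a1 at 0.118 with both left out. With 1 library left out the values ran from -0.167 to 0.009 for Cd59a, -0.038 to 0.185 for Adgre1, -0.237 to 0.085 for Cd68, -0.38 to 0.714 for Cd3e and -0.307 to 0.192 for Col1a1.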
